A study of Homo sapiens with 3 samples.

Results

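The integrins and laminins of Cal62 cells, a human thyroid cancer cell line, were followed after ADAR1 knockdown. Members were the protein-coding genes of the deposited table whose symbol, looked up from the Ensembl identifier, names an integrin alpha subunit, an integrin beta subunit or a laminin alpha, beta or gamma chain. This rule gave 38 of 58333 genes, or 38 of 19793 protein-coding genes, and comprised 26 integrin genes and 12 laminin genes. The rule itself uses gene names and no measured value.

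Integrins are cell surface receptors made of 1 alpha and 1 beta subunit, and the pair sets which matrix protein is bound: collagen, laminin, or ligands with the RGD (Arg-Gly-Asp) motif such as fibronectin and vitronectin. They link the matrix to the actin cytoskeleton, or in hemidesmosomes to keratin filaments. Laminins are secreted heterotrimers of an alpha, a beta and a gamma chain, and they form the sheet-like core of the basement membrane on which epithelial cells, thyroid follicular cells included, rest.

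All cells were Cal62 grown in DMEM with fetal bovine serum and transfected by Lipofectamine RNAimax with 1 of 3 siRNAs, and no untransfected cells were examined here. The conditions were siControl (Silencer Select Negative Control #1), siADAR1 #1 and siADAR1 #2, with 2 biological replicates of each. Cal62 is 1 cell line, the siRNAs were transient, and the time from transfection to RNA isolation is not given for these libraries. Libraries of poly(A)+ RNA were read as 75-bp pairs, and between 30114840 and 50029763 reads per library were counted for genes.

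ADAR, the gene of the double-stranded RNA adenosine deaminase ADAR1 (chr1:154581695-154628013, minus strand, GRCh38), was the target of both siRNAs. Its level was 10906 and 11701 (siControl), 1328 and 2246 (siADAR1 #1) and 1663 and 2928 (siADAR1 #2) normalized counts, that is, reads divided by the size factor of the library. ADAR fell in every siADAR1 library, with a log2 difference of -2.71 (SE 0.30, adjusted p = 0.00355) for siADAR1 #1 and of -2.35 (SE 0.30, adjusted p = 0.00153) for siADAR1 #2. Log2 differences, here and below, are on the variance-stabilized log2 scale of the deposited values, which compresses the differences of genes with few reads. A gene is called changed, and said to rise or fall, at an adjusted p below 0.05 with a log2 difference beyond 0.5 in either direction. The p-values measure the spread between these 6 libraries only.

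The epithelial keratins KRT8, KRT18 and KRT19 and the adhesion molecule EPCAM each stood above 100 normalized counts in every library, so 4 of 5 epithelial markers were present throughout. Of 7 thyroid follicular markers only PAX8 was above 100 normalized counts in every library, and NKX2-1 was at 0 in all 6. FOXE1 was lower, with 249 and 151 (siControl), 118 and 94.2 (siADAR1 #1) and 96.4 and 70.3 (siADAR1 #2). TSHR had 70.8 and 73.4 (siControl), 61.7 and 41.5 (siADAR1 #1) and 95.3 and 107 (siADAR1 #2). PAX8 read 13927 and 15868 (siControl), 10272 and 15074 (siADAR1 #1) and 2542 and 5484 (siADAR1 #2). The summed level of 5 leukocyte markers was 46.9 to 53.4 normalized counts in siControl, 138 to 155 in siADAR1 #1 and 27.2 to 67.4 in siADAR1 #2. CD3E was at 0 everywhere, and CD14 made up most of the siControl and siADAR1 #1 sums. CD14 read 44.6 and 34.7 (siControl), 119 and 113 (siADAR1 #1) and 21.5 and 30.8 (siADAR1 #2). Endothelial markers summed to 93.8 to 119, 170 to 174 and 104 to 141 normalized counts in the same order. Fibroblast markers, nearly all COL1A1, summed to 5561 to 6859, 3270 to 3901 and 2790 to 3890 normalized counts.

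The promoter sequences of the members were read for the AP-1 element TGAGTCA, the site bound by FOS and JUN dimers, on both strands (TGACTCA on the other). The table of RefSeq promoters (GRCh38.p14, 250 bases before to 50 after a start site) held 33 promoters of 26 members. The element stood in 1 promoter each of 3 members, and in 4.95% of all 35116 promoters of the table. All 3 members were called changed with siADAR1 #2, where 12 of the 32 members tested were called. They differed in direction. ITGA5, the fibronectin receptor alpha subunit, rose, and LAMA3 and LAMB3, chains of the epithelial laminin, fell. With siADAR1 #1, 6 of 32 members were called, and of these 3 genes only LAMA3, which fell. The windows were picked with these calls known, and any relation of the element to the calls was not tested. Each window is printed in the direction of transcription with the element in capitals and 10 bases on either side.
ITGA5, chr12:54419256-54419282, minus strand: ctccccgcgtTGAGTCAttcgcctctg
LAMA3, chr18:23872885-23872911, plus strand: tggcacaggcTGACTCAtgtgtgaagt
LAMA3, chr18:23872941-23872967, plus strand: cttcctcaccTGAGTCAggcaggcccg
LAMB3, chr1:209651425-209651451, minus strand: tcagccactcTGACTCAttcactttgg
The element began 6 bases before the start site in ITGA5, 125 and 69 bases before it in LAMA3, and 67 bases before it in LAMB3. The start site of LAMA3 concerned lies inside the annotated gene (chr18:23689453-23956222, plus strand), where the shorter alpha3 transcripts begin. A match of letters is a description of these windows, and no binding was measured.

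In siControl cells, 23 of the 38 members reached 1 TPM (reads per length of the canonical transcript, scaled to the same total over all genes in every library) and 16 reached 10 TPM. ITGB1, the beta subunit shared by most matrix-binding integrins (chr10:32887273-33005792, minus strand), was the highest member at 891 ± 17.1 TPM (SD, n = 2). ITGA3, the alpha subunit of the main laminin receptor of epithelial cells (chr17:50055968-50090481, plus strand), followed with 283 ± 34.5 TPM. LAMB3 and LAMA3, chains of the epithelial laminin that anchors hemidesmosomes, were unequal in TPM, with 147 ± 16.5 for LAMB3 and 8.57 ± 0.166 for LAMA3. The LAMA3 value rests on a canonical length of 10651 bases and would be higher for the shorter alpha3 transcripts. Which of its transcripts were read was not examined. LAMB1 and LAMC1, the beta and gamma chains of most basement membrane laminins, were at 123 ± 8.19 and 88.5 ± 13.5 TPM.

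Among the RGD-binding integrins of siControl cells, ITGB5 was highest at 100.3 ± 9.01 TPM, ahead of ITGA5 at 84.4 ± 0.138, ITGB3 at 40.7 ± 2.43 and ITGAV at 39.5 ± 2.19 TPM. ITGA2, the alpha subunit of the collagen receptor of epithelia and platelets, stood at 25.4 ± 2.35 TPM, and ITGA1, its relative that favours basement membrane collagen, at 4.54 ± 0.454 TPM. ITGAE led the subunits named for leukocytes with 13.4 ± 2.31 TPM, whereas ITGB2, the beta subunit of the main leukocyte integrins, was at 1.18 ± 0.553 TPM. In the order of levels, the 2 siControl values of LAMC1 overlapped the range of ITGB5 and spanned those of ITGA5, and ITGB3 and ITGAV also overlapped, so these neighbours were not separated. The place of LAMB1 rests on the transcript length used, since with the length of all annotated exons it was at 60.7 TPM and moved from rank 4 to rank 9.

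**Figure D1:**
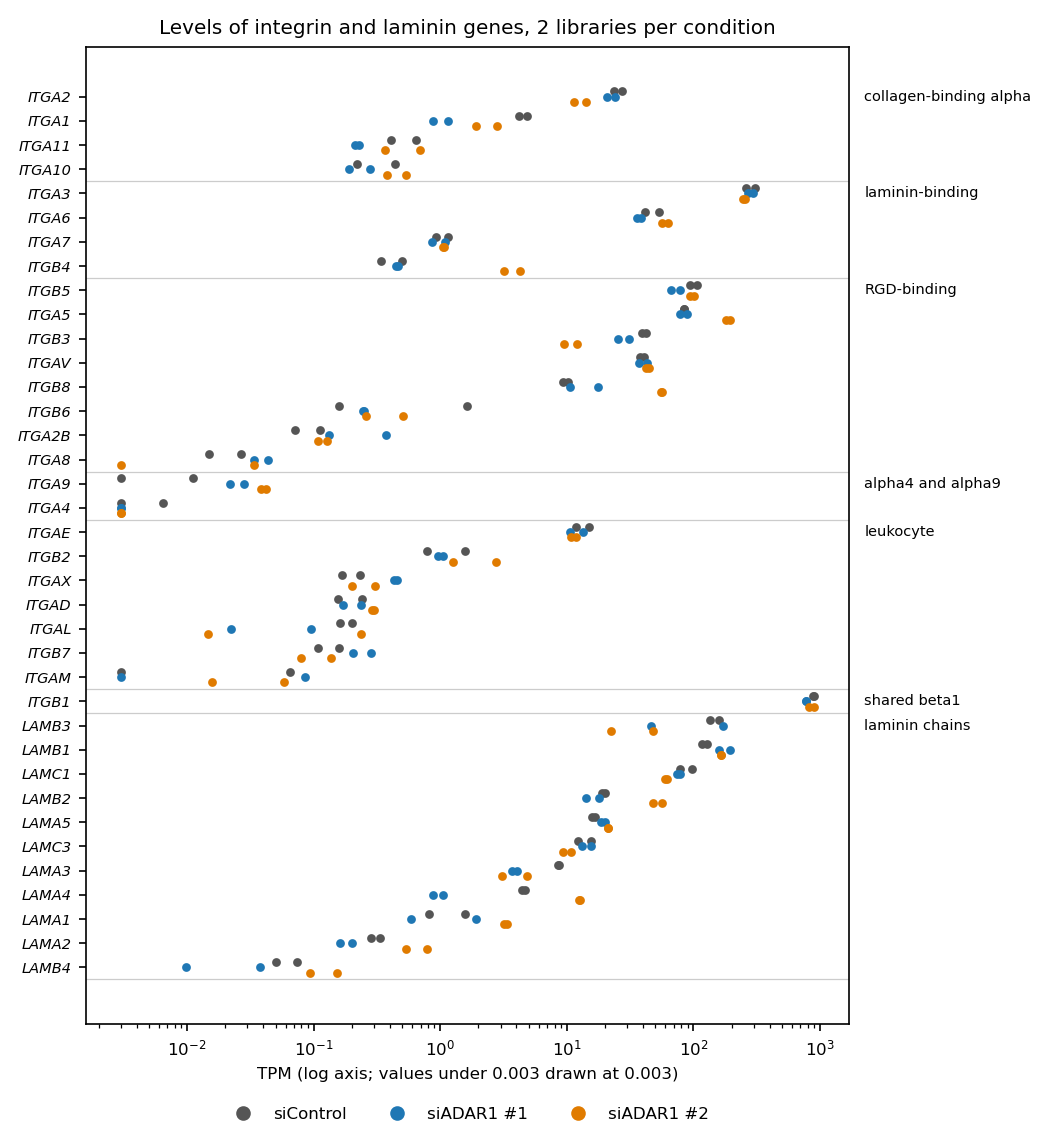
Level of the members described here in TPM (log axis) in each of the 6 libraries, with members grouped by ligand class or as laminin chains and points coloured by siRNA. ITGB1 was the highest member in every library, while the alpha4 and alpha9 subunits lay near the bottom of the axis, where values under 0.003 are drawn at 0.003.

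Of the 38 members, 32 passed the filter for testing (10 normalized counts on average), and these were 21 integrin genes and 11 laminin genes. The 6 others were ITGA4, ITGA8, ITGA9, ITGAM, ITGB7 and LAMB4. ITGA4, the alpha subunit of lymphocyte homing receptors, had 1 and 0 (siControl), 0 and 0 (siADAR1 #1) and 0 and 0 (siADAR1 #2) reads. ITGA8, an RGD-binding subunit of mesenchymal cells, had 4 and 2 (siControl), 5 and 5 (siADAR1 #1) and 4 and 0 (siADAR1 #2) reads. In the other 4 the reads of a library ran from 0 to 14. At this depth 3 reads correspond to between 2.81 and 4.39 normalized counts, and such limits cover counting error only.

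With siADAR1 #1, the matrix receptors and chains that changed all fell. The largest falls were those of LAMA4, a laminin alpha chain of vessel and mesenchymal basement membranes, at 4.96-fold, and of ITGA1 at 4.70-fold. LAMA3, ITGA11, ITGB3 and ITGB5 were the other members called. By limma, 0 of 32 members rose and 6 fell, or 18.8% of those tested, against 17.4% of all 20247 genes tested (6.39% up and 11% down). The share was near that of all genes. At an unadjusted p below 0.05, 2 members were higher and 8 lower, and voom on the recovered reads called 0 up and 6 down. No share of all genes is set beside such counts, here or for the classes below, so they are a description only. The median log2 difference of the tested members was -0.25, against -0.03 over all genes tested. In bulk RNA a lower level in each cell and fewer cells of a kind cannot be told apart. The count was 3 with no filter on low values and 2 with eBayes without trend. It was also lower without siControl replicate 1 or siADAR1 #1 replicate 1. Fewer of all genes were called as well without siControl replicate 1 and with eBayes without trend, as given at the end. Only ITGA1 and LAMA4 were called in all 14 alternatives.

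With siADAR1 #2, members moved in both directions. ITGB4, the hemidesmosome beta subunit, rose 7.58-fold and ITGB8, a partner of the alphaV subunit, rose 5.04-fold. LAMB3 was 5.11-fold lower and ITGB3 was 4.31-fold lower. In all, 5 members rose (ITGA5, ITGB4, ITGB8, LAMA4, LAMB2) and 7 fell (ITGA1, ITGA2, ITGB3, LAMA3, LAMB3, LAMC1, LAMC3), or 37.5% of the 32 tested, against 27.5% of all genes tested (11.6% up and 16% down). The median log2 difference was -0.09, against -0.02 over all genes tested. ITGA2, ITGA5, ITGB3, ITGB4, ITGB8, LAMA3, LAMA4 and LAMB2 were called in all 14 alternatives, and 8 members were called without siControl replicate 1.

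The siRNAs were also compared with each other, a contrast that uses no siControl library. Members differed between siADAR1 #2 and siADAR1 #1 in 13 of 32 cases, with 10 higher and 3 lower in siADAR1 #2 cells. This was 40.6% of the members tested, against 33.7% of all genes tested (17.3% up and 16.5% down). The widest difference was that of LAMA4, at a log2 of 3.59 (SE 0.19, adjusted p = 0.000155). The level of ADAR itself did not pass this test, with a log2 difference of 0.35 (SE 0.30, adjusted p = 0.406). The median log2 difference of the tested members was 0.19, against 0.01 over all genes tested, and 9 of the 13 members were called in all 14 alternatives.

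Read without a test, the 4 siADAR1 libraries lay wholly on 1 side of the siControl libraries for 7 of 32 members. ITGB8, LAMA5 and LAMB1 were higher in all 4, and ITGA1, ITGA3, ITGB3 and LAMA3 were lower in all 4. Over all genes tested, this held for 29% (12% up and 17% down). Taken 1 siRNA at a time, the siADAR1 #1 libraries did not overlap siControl for 5 members above and 12 below (61.8% of all genes tested, 28.5% up and 33.4% down). The siADAR1 #2 libraries did not overlap siControl for 11 members above and 10 below (68.1%, 32.5% up and 35.6% down). Between the siRNAs, 14 members were higher and 9 lower in siADAR1 #2 without overlap (70.2%, 34.9% up and 35.3% down). Non-overlap of 2 against 2 libraries is therefore common in these data.

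**Figure D2:**
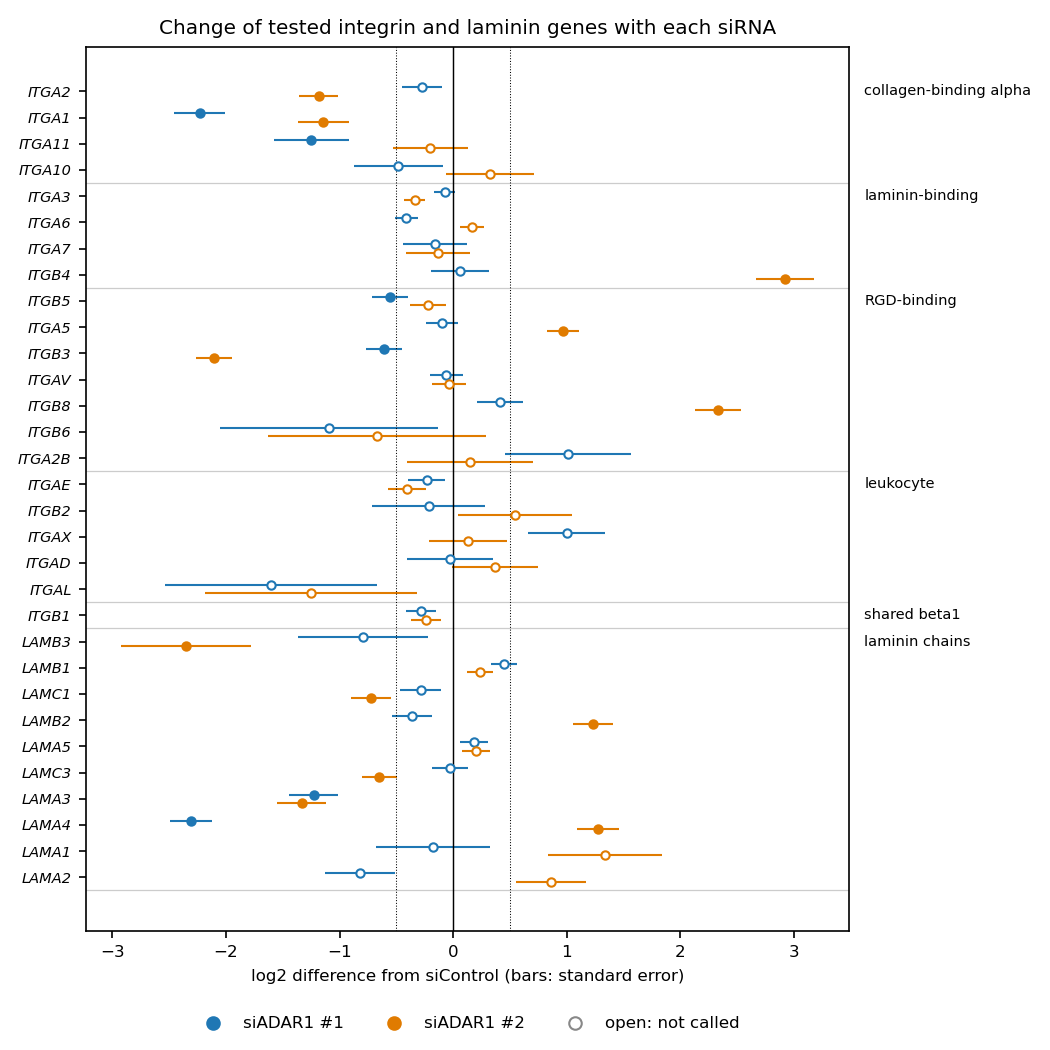
Log2 difference from siControl (variance-stabilized scale, bars are SE) for the tested members described here with siADAR1 #1 and siADAR1 #2, by ligand class, with filled points for calls. LAMA4 lay at -2.31 with siADAR1 #1 and 1.28 with siADAR1 #2, whereas ITGB3 and LAMA3 lay below zero with both.

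Collagen-binding alpha subunits, which all pair with beta1, fell in 2 of 4 cases with each siRNA, against 11% and 16% of all genes tested called down, and limma called 0 up (0 at an unadjusted p below 0.05 and 0 by voom). ITGA1 (chr5:52787916-52959209, plus strand) read 1129 and 1081 (siControl), 198 and 274 (siADAR1 #1) and 424 and 586 (siADAR1 #2) normalized counts. Every siADAR1 library was lower than siControl, and those of siADAR1 #1 were lowest. Its log2 difference was -2.23 (SE 0.22, adjusted p = 0.00299) with siADAR1 #1 and -1.14 (SE 0.22, adjusted p = 0.00762) with siADAR1 #2, and siADAR1 #2 cells stood above siADAR1 #1 cells by 1.09 (SE 0.22, adjusted p = 0.00747). Exons of ITGA1 overlap those of PELO, a ribosome rescue factor, on the same strand, so reads there are of uncertain origin. PELO did not pass the test with either siRNA, with log2 differences of 0.062 and -0.021. The fall of ITGA1 with siADAR1 #2 lost its call without siControl replicate 1 (adjusted p = 0.063) and without siADAR1 #2 replicate 1 (adjusted p = 0.0549).

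ITGA2 (chr5:52989340-53094779, plus strand) read 5301 and 3864 (siControl), 3941 and 3551 (siADAR1 #1) and 1837 and 2159 (siADAR1 #2) normalized counts. The siADAR1 #2 libraries were well below the other 4, and the siADAR1 #1 libraries overlapped siControl. Its log2 difference was -0.27 (SE 0.17, adjusted p = 0.315) with siADAR1 #1, -1.18 (SE 0.17, adjusted p = 0.00235) with siADAR1 #2 and -0.91 (SE 0.17, adjusted p = 0.0054) between the siRNAs.

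ITGA11, a receptor for fibrillar collagen of mesenchymal cells (chr15:68296532-68432163, minus strand), was low, with 103 and 137 (siControl), 45.8 and 51.5 (siADAR1 #1) and 77.1 and 138 (siADAR1 #2) normalized counts. The siADAR1 #1 libraries were below the other 4. Its log2 difference was -1.25 (SE 0.33, adjusted p = 0.0377) with siADAR1 #1, -0.20 (adjusted p = 0.694) with siADAR1 #2 and 1.05 (SE 0.33, adjusted p = 0.0407) between the siRNAs. The call with siADAR1 #1 was lost without either siControl library (-1.45 and -1.05) or either siADAR1 #1 library (-1.17 and -1.33). It was also lost with no filter (adjusted p = 0.0653) and with eBayes without trend (adjusted p = 0.0746). The call between the siRNAs was lost in 5 of 6 omissions of 1 library, all but siADAR1 #2 replicate 1. With no filter, eBayes without trend, voom or 4 libraries in the fit it was lost too (adjusted p between 0.0527 and 0.0686). ITGA10, the cartilage collagen receptor, was not called, with log2 differences of -0.48 (adjusted p = 0.436) and 0.33 (adjusted p = 0.574).

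Among the laminin-binding subunits, limma called 0 of 4 with siADAR1 #1 (1 lower at an unadjusted p below 0.05, 0 by voom), against 17.4% of all genes tested. With siADAR1 #2 it called ITGB4, which rose, or 25% of the 4, against 27.5% of all genes tested. ITGB4 (chr17:75721328-75757818, plus strand) read 50.1 and 61.2 (siControl), 58.0 and 57.8 (siADAR1 #1) and 516 and 369 (siADAR1 #2) normalized counts. The 2 libraries of siADAR1 #2 were far above the other 4, which were alike. Its log2 difference was 0.061 (SE 0.26, adjusted p = 0.897) with siADAR1 #1, 2.92 (SE 0.26, adjusted p = 0.000482) with siADAR1 #2 and 2.86 (SE 0.26, adjusted p = 0.000357) between the siRNAs. Per length it remained a minor beta subunit, at 3.73 TPM in siADAR1 #2 cells.

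ITGA6, the alpha partner of ITGB4 (chr2:172427354-172506459, plus strand), read 5981 and 6403 (siControl), 4696 and 4613 (siADAR1 #1) and 6739 and 7123 (siADAR1 #2) normalized counts. Levels were lowest in siADAR1 #1 and highest in siADAR1 #2, with no overlap between conditions. The log2 difference was -0.41 (SE 0.10, adjusted p = 0.0329) with siADAR1 #1, which is inside the 0.5 limit, and 0.16 (SE 0.10, adjusted p = 0.286) with siADAR1 #2. ITGA6 was higher in siADAR1 #2 than in siADAR1 #1 by 0.57 (SE 0.10, adjusted p = 0.00453), a difference that shrank to 0.47 and lost its call when libraries were centred on their medians.

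ITGA3 read 31525 and 31136 (siControl), 30232 and 29263 (siADAR1 #1) and 24914 and 24607 (siADAR1 #2) normalized counts. The siADAR1 #2 libraries were lowest, with no overlap, but the log2 differences of -0.075 (SE 0.09, adjusted p = 0.624) with siADAR1 #1 and -0.34 (SE 0.09, adjusted p = 0.0275) with siADAR1 #2 were both inside the 0.5 limit. ITGA7, a laminin receptor of muscle, was not called, with log2 differences of -0.16 (adjusted p = 0.742) and -0.13 (adjusted p = 0.763).

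The RGD-binding class, with 7 of 8 members tested, had 2 falls with siADAR1 #1, and 2 rises and 1 fall with siADAR1 #2. That was 28.6% and 42.9% called, against 17.4% and 27.5% of all genes tested. The beta partners of alphaV moved apart. ITGB3, the beta subunit of the vitronectin receptor (chr17:47253827-47313743, plus strand), read 5775 and 5221 (siControl), 3181 and 4069 (siADAR1 #1) and 1161 and 1394 (siADAR1 #2) normalized counts. Every siADAR1 library was below both siControl libraries, and those of siADAR1 #2 were lowest. Its log2 difference was -0.61 (SE 0.16, adjusted p = 0.0364) with siADAR1 #1, -2.11 (SE 0.16, adjusted p = 0.000386) with siADAR1 #2 and -1.50 (SE 0.16, adjusted p = 0.000588) between the siRNAs. The call with siADAR1 #1 was lost without siControl replicate 1 (-0.54), siControl replicate 2 (-0.68) or siADAR1 #1 replicate 1 (-0.43). It was also lost with no filter (adjusted p = 0.0687), with median-centred libraries (-0.47) and with eBayes without trend (adjusted p = 0.113). The exons of ITGB3 overlap an unnamed gene on the same strand.

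ITGB8, the beta subunit of the receptor that activates latent TGF-beta (chr7:20330702-20415754, plus strand), read 2089 and 1909 (siControl), 3361 and 2103 (siADAR1 #1) and 10306 and 9843 (siADAR1 #2) normalized counts. Both siADAR1 #2 libraries were far above all others, and siADAR1 #1 replicate 1 stood above its replicate. This gave a log2 difference of 0.41 (SE 0.21, adjusted p = 0.209) with siADAR1 #1, 2.33 (SE 0.21, adjusted p = 0.000481) with siADAR1 #2 and 1.92 (SE 0.21, adjusted p = 0.000588) between the siRNAs. Without siADAR1 #1 replicate 2, the first of these became 0.75 (adjusted p = 0.0138).

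ITGA5 (chr12:54395261-54419266, minus strand), whose start site is the last base of the AP-1 element printed above, read 8936 and 7443 (siControl), 7019 and 8288 (siADAR1 #1) and 16917 and 15071 (siADAR1 #2) normalized counts. The 2 libraries of siADAR1 #2 were well above the rest, and siADAR1 #1 overlapped siControl. ITGA5 was called with siADAR1 #2 only, at a log2 difference of 0.97 (SE 0.14, adjusted p = 0.00218) or 1.96-fold, against -0.097 (SE 0.14, adjusted p = 0.678) with siADAR1 #1. Between the siRNAs the log2 difference was 1.07 (SE 0.14, adjusted p = 0.00116).

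ITGB5, the more abundant vitronectin-binding beta subunit (chr3:124761948-124901418, minus strand), read 11816 and 8645 (siControl), 7318 and 6472 (siADAR1 #1) and 8617 and 8748 (siADAR1 #2) normalized counts. The siADAR1 #1 libraries were lowest, and siADAR1 #2 replicates lay at the lower edge of the siControl range. In the fit, the log2 difference came to -0.55 (SE 0.16, adjusted p = 0.0466) with siADAR1 #1 and -0.22 (SE 0.16, adjusted p = 0.339) with siADAR1 #2. Of the 6 omissions of 1 library, the call with siADAR1 #1 held without siControl replicate 2, and the adjusted p was 0.193 without siControl replicate 1, 0.105 and 0.155 without either siADAR1 #1 library, and 0.0748 and 0.0741 without either siADAR1 #2 library. The call was also lost with no filter (adjusted p = 0.0855), with median-centred libraries (-0.41, adjusted p = 0.131), with eBayes without trend (adjusted p = 0.142) and with 4 libraries in the fit (adjusted p = 0.0726).

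ITGAV, the alpha subunit shared by these beta chains (chr2:186590010-186680901, plus strand), read 7209 and 5537 (siControl), 6354 and 5783 (siADAR1 #1) and 6460.1 and 5859 (siADAR1 #2) normalized counts. All conditions overlapped, and its log2 difference was -0.060 (SE 0.15, adjusted p = 0.821) with siADAR1 #1 and -0.038 (SE 0.15, adjusted p = 0.875) with siADAR1 #2. ITGB6, the epithelial TGF-beta activating beta subunit, read 187 and 15.3 (siControl), 24.3 and 25.1 (siADAR1 #1) and 48.8 and 23.4 (siADAR1 #2) normalized counts. Here siControl replicate 1 stood far above the other 5 libraries. ITGB6 was not called, at -1.09 (SE 0.96, adjusted p = 0.477) and -0.67 (SE 0.96, adjusted p = 0.644), and without siControl replicate 1 these became 0.62 and 1.04, whereas without siControl replicate 2 they became -2.80 (adjusted p = 0.0424) and -2.38 (adjusted p = 0.0280). The cadherin CDH1 read 210.2 and 39.8 (siControl), 49.6 and 52.8 (siADAR1 #1) and 196 and 36.6 (siADAR1 #2) normalized counts, and was high in siControl replicate 1 and in siADAR1 #2 replicate 1. ITGA2B, the platelet subunit, was near the filter and was not called with either siRNA.

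ITGB1 read 84124 and 68027 (siControl), 60986 and 63149 (siADAR1 #1) and 69110.3 and 59653 (siADAR1 #2) normalized counts. The siADAR1 #1 libraries were below both siControl libraries and siADAR1 #2 replicate 1 lay between them. On the log2 scale the difference was -0.29 (SE 0.13, adjusted p = 0.178) with siADAR1 #1 and -0.24 (SE 0.13, adjusted p = 0.22) with siADAR1 #2, neither of them called and both inside the 0.5 limit.

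Of the 7 subunits of leukocyte integrins, 5 were tested and 0 were called with either siRNA by limma, against 17.4% and 27.5% of all genes tested. With so few genes, 0 calls is not read as a trait of the class. Leukocyte markers were low in this cell line, as given above, and any relation to them was not tested. At an unadjusted p below 0.05 there was 1 leukocyte subunit with each siRNA (ITGAX with siADAR1 #1, ITGAE with siADAR1 #2), and voom on the recovered reads also called 0. ITGAE, the partner of beta7 in epithelium-homing lymphocytes, read 1115 and 1184 (siControl), 856 and 1115 (siADAR1 #1) and 847 and 886 (siADAR1 #2) normalized counts. The 4 siADAR1 libraries lay at or below the siControl range, and the log2 difference was -0.23 (SE 0.16, adjusted p = 0.366) with siADAR1 #1 and -0.41 (SE 0.16, adjusted p = 0.1) with siADAR1 #2. ITGAX, a myeloid alpha subunit, read 19.6 and 22.44 (siControl), 44.89 and 43.97 (siADAR1 #1) and 19.28 and 27.83 (siADAR1 #2) normalized counts. It was highest in the siADAR1 #1 libraries, at a log2 difference of 1.00 (SE 0.34, adjusted p = 0.0815) that did not pass. ITGAL, ITGAD and ITGB2 were not called, and ITGAL, at 13.6 normalized counts on average, passed with siADAR1 #2 only when siADAR1 #2 replicate 1 was left out (-2.73, adjusted p = 0.0476).

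**Figure D3:**
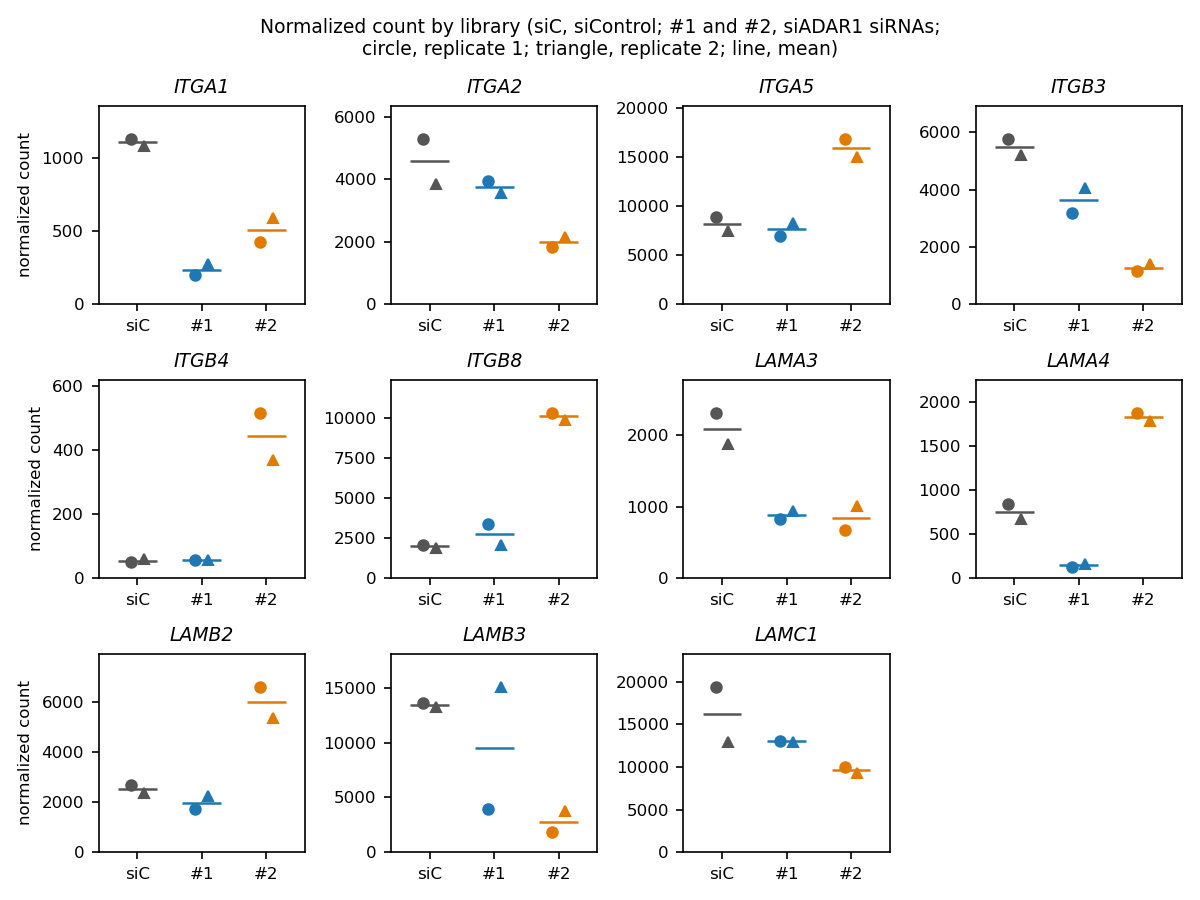
Normalized counts (linear axes from 0) of 11 integrin and laminin genes in each of the 6 libraries, with a circle for replicate 1, a triangle for replicate 2 and a line at the mean of each condition. The 2 siADAR1 #1 points of LAMB3 lie far apart, at 3942 and 15091, while those of LAMA4, at 134 and 167, lie close together below siControl.

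Laminin alpha chains decide which laminin is formed and which receptors bind it. LAMA4 (chr6:112107931-112254939, minus strand) read 843 and 669 (siControl), 134 and 167 (siADAR1 #1) and 1876 and 1777 (siADAR1 #2) normalized counts. The conditions did not overlap, with siADAR1 #1 lowest and siADAR1 #2 highest. LAMA4 fell with siADAR1 #1 by a log2 difference of -2.31 (SE 0.19, adjusted p = 0.00247) and rose with siADAR1 #2 by 1.28 (SE 0.19, adjusted p = 0.00228), or 2.43-fold. All libraries came from 1 cell line, and any relation of the endothelial and fibroblast marker sums given above to these differences was not tested.

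LAMA3, the alpha chain of the epithelial laminin, read 2309 and 1867 (siControl), 833 and 939.6 (siADAR1 #1) and 672 and 1005 (siADAR1 #2) normalized counts. All 4 siADAR1 libraries were below both siControl libraries, and the 2 siRNAs overlapped each other. LAMA3 fell with siADAR1 #1 by a log2 difference of -1.23 (SE 0.21, adjusted p = 0.00995) and with siADAR1 #2 by -1.33 (SE 0.21, adjusted p = 0.00335), and the siRNAs did not pass the test against each other at -0.11 (SE 0.21, adjusted p = 0.735). The call with siADAR1 #1 was lost without siControl replicate 1 (adjusted p = 0.0874), without siADAR1 #1 replicate 1 (adjusted p = 0.0555) and with eBayes without trend (adjusted p = 0.0520).

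LAMA5, the alpha chain of the most widespread adult basement membrane laminin (chr20:62307955-62367312, minus strand), was the highest alpha chain, with 4501 and 3923 (siControl), 4519.6 and 5051 (siADAR1 #1) and 4996 and 4687 (siADAR1 #2) normalized counts. All siADAR1 libraries were slightly above siControl, and neither log2 difference passed, at 0.19 (SE 0.12, adjusted p = 0.341) with siADAR1 #1 and 0.20 (SE 0.12, adjusted p = 0.257) with siADAR1 #2.

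LAMA1, the alpha chain of the embryonic laminin (chr18:6941742-7117797, minus strand), read 197 and 315 (siControl), 119.7 and 404 (siADAR1 #1) and 632 and 634 (siADAR1 #2) normalized counts. Both siADAR1 #2 libraries were the highest, and the siADAR1 #1 replicates lay on either side of siControl. Its fitted difference was a log2 of -0.18 (SE 0.50, adjusted p = 0.845) with siADAR1 #1 and 1.34 (SE 0.50, adjusted p = 0.0839) with siADAR1 #2, neither called, and 1.51 (SE 0.50, adjusted p = 0.0489) between the siRNAs. The last call was lost in 5 of 6 omissions of 1 library, with a difference of 0.64 without siADAR1 #1 replicate 1. It held (2.38) without siADAR1 #1 replicate 2. It was also lost with no filter (adjusted p = 0.0830), with eBayes without trend (adjusted p = 0.116) and with 4 libraries in the fit (adjusted p = 0.0790). With only the siControl and siADAR1 #2 libraries in the fit, or without either siADAR1 #1 library, LAMA1 passed the test with siADAR1 #2 (adjusted p = 0.00758 in the first case), and it also passed with the replicate number as a block (adjusted p = 0.0224).

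LAMA2, the alpha chain of muscle and nerve laminin (chr6:128883138-129516566, plus strand), was low, with 68.6 and 67.3 (siControl), 32.7 and 42.7 (siADAR1 #1) and 156 and 101 (siADAR1 #2) normalized counts. The conditions did not overlap, with siADAR1 #1 lowest. Neither difference from siControl passed, at -0.82 (SE 0.31, adjusted p = 0.107) and 0.86 (SE 0.31, adjusted p = 0.0703), whereas siADAR1 #2 exceeded siADAR1 #1 by 1.69 (SE 0.31, adjusted p = 0.00453).

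Laminin beta chains diverged with siADAR1 #2. LAMB3 (chr1:209614870-209652425, minus strand), the beta chain that joins alpha3 in the epithelial laminin, read 13577 and 13225 (siControl), 3942 and 15091 (siADAR1 #1) and 1825 and 3762 (siADAR1 #2) normalized counts. The 2 libraries of siADAR1 #2 were below siControl, and the siADAR1 #1 replicates ran from near the siADAR1 #2 level to above siControl. The log2 difference was -2.35 (SE 0.57, adjusted p = 0.0182) with siADAR1 #2 and -0.80 (SE 0.57, adjusted p = 0.38) with siADAR1 #1, and the latter became -1.76 (adjusted p = 0.0223) when siADAR1 #1 replicate 2 was left out but 0.17 when replicate 1 was. The call with siADAR1 #2 was lost without siControl replicate 1, siControl replicate 2 or siADAR1 #2 replicate 1 (adjusted p = 0.108, 0.0961 and 0.111), and with eBayes without trend (adjusted p = 0.0704). Between the siRNAs LAMB3 differed by -1.56 (SE 0.57, adjusted p = 0.0673), which was not called, but it was called with the replicate number as a block (adjusted p = 0.0113), with median-centred libraries (-1.66, adjusted p = 0.0369) and without siADAR1 #1 replicate 1 (-2.52, adjusted p = 0.00515).

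LAMB2, the beta chain of synaptic and kidney laminins (chr3:49121114-49133118, minus strand), read 2689.8 and 2377 (siControl), 1713 and 2257 (siADAR1 #1) and 6596 and 5343 (siADAR1 #2) normalized counts. Both siADAR1 #2 libraries were above the other 4. LAMB2 rose with siADAR1 #2 by a log2 difference of 1.23 (SE 0.17, adjusted p = 0.00206), did not pass with siADAR1 #1 at -0.36 (SE 0.17, adjusted p = 0.192), and differed between the siRNAs by 1.59 (SE 0.17, adjusted p = 0.000608).

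LAMB1 (chr7:107923799-108003213, minus strand) read 16478 and 15049.7 (siControl), 23261 and 19954 (siADAR1 #1) and 18992 and 18159 (siADAR1 #2) normalized counts. All 4 siADAR1 libraries were above siControl, with those of siADAR1 #1 highest. This gave a log2 difference of 0.45 (SE 0.11, adjusted p = 0.0322) with siADAR1 #1, inside the 0.5 limit, and 0.24 (SE 0.11, adjusted p = 0.161) with siADAR1 #2. Median-centred libraries gave 0.59 with siADAR1 #1, and leaving out siADAR1 #1 replicate 2 gave 0.56, both called.

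The gamma chains LAMC1 and LAMC3 fell with siADAR1 #2, and neither was called with siADAR1 #1. LAMC1 (chr1:183023420-183145592, plus strand) read 19407 and 12977 (siControl), 13080.0 and 12962 (siADAR1 #1) and 9985 and 9252 (siADAR1 #2) normalized counts. The siADAR1 #2 libraries were lowest, and siControl replicate 1 stood above the other 5. In the fit, the log2 difference came to -0.29 (SE 0.18, adjusted p = 0.312) with siADAR1 #1 and -0.72 (SE 0.18, adjusted p = 0.0192) with siADAR1 #2. The latter shrank to -0.43 and lost its call without siControl replicate 1. The call was also lost without either siADAR1 #2 library (-0.78 and -0.67) and with eBayes without trend (adjusted p = 0.0772). Without siControl replicate 2 the difference with siADAR1 #1 became -0.58 (adjusted p = 0.0494).

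LAMC3, a gamma chain of cortical and retinal laminins (chr9:131009174-131094473, plus strand), read 2281 and 2421 (siControl), 2086 and 2547 (siADAR1 #1) and 1649 and 1356 (siADAR1 #2) normalized counts. The 2 libraries of siADAR1 #2 were below the other 4. On the log2 scale the difference was -0.028 (SE 0.15, adjusted p = 0.924) with siADAR1 #1, -0.65 (SE 0.15, adjusted p = 0.0165) with siADAR1 #2 and -0.62 (SE 0.15, adjusted p = 0.0161) between the siRNAs. The call with siADAR1 #2 was lost without siControl replicate 1 (-0.69), siControl replicate 2 (-0.61) or siADAR1 #2 replicate 2 (-0.51). That between the siRNAs was lost without siADAR1 #1 replicate 2 (-0.48) or siADAR1 #2 replicate 2 (-0.48). Both calls were also lost with eBayes without trend (adjusted p = 0.0596 and 0.0557).

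Expressed per length, the makeup of groups of related subunits differed between conditions. These shares of summed TPM are given as a description, since they restate the levels above. Among the alphaV partners other than beta1, ITGB8 held 6.48% ± 0.733 in siControl (SD, n = 2), 12.2% ± 3.37 in siADAR1 #1 and 34.0% ± 1.19 in siADAR1 #2. The share of ITGB3 was 26.9% ± 2.83, 24.8% ± 5.56 and 6.51% ± 0.825 in the same order. ITGB5 remained the largest of the 4 in every library, at 66.1% ± 2.91 in siControl and 59.2% ± 0.483 in siADAR1 #2.

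Among the laminin alpha chains, LAMA5 held 52.5% ± 0.402 in siControl, 75.8% ± 2.93 in siADAR1 #1 and 50.8% ± 1.65 in siADAR1 #2. LAMA4 held 14.8% ± 0.866, 3.75% ± 0.15 and 30.3% ± 0.775, and LAMA3 held 27.8% ± 1.26, 15.1% ± 0.487 and 9.46% ± 2.77. In siADAR1 #1 cells the share lost by LAMA3 and LAMA4 thus stood against a larger share of LAMA5, and in siADAR1 #2 cells LAMA4 exceeded LAMA3. The absolute shares rest on a LAMA3 length of 10651 bases, and shorter alpha3 transcripts would raise that of LAMA3.

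Among the laminin beta chains, LAMB3 held 50.8% ± 1.22 in siControl and 13.8% ± 6.55 in siADAR1 #2, and LAMB2 held 6.76% ± 0.303 and 20.9% ± 3.43. In siADAR1 #1 the share of LAMB3 was 33.5% ± 21.7, a spread as wide as the difference between conditions. LAMB1 had 42.4% ± 0.911 in siControl and 65.3% ± 3.14 in siADAR1 #2, but these absolute shares depend on the length used, with 20.7% ± 0.616 and 40.5% ± 3.49 when all annotated exons were counted. By that length LAMB3 held 70.3% ± 1.10 in siControl and 24.03% ± 10.6 in siADAR1 #2, and LAMB2 held 8.99% ± 0.478 and 35.4% ± 7.15.

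**Figure D4:**
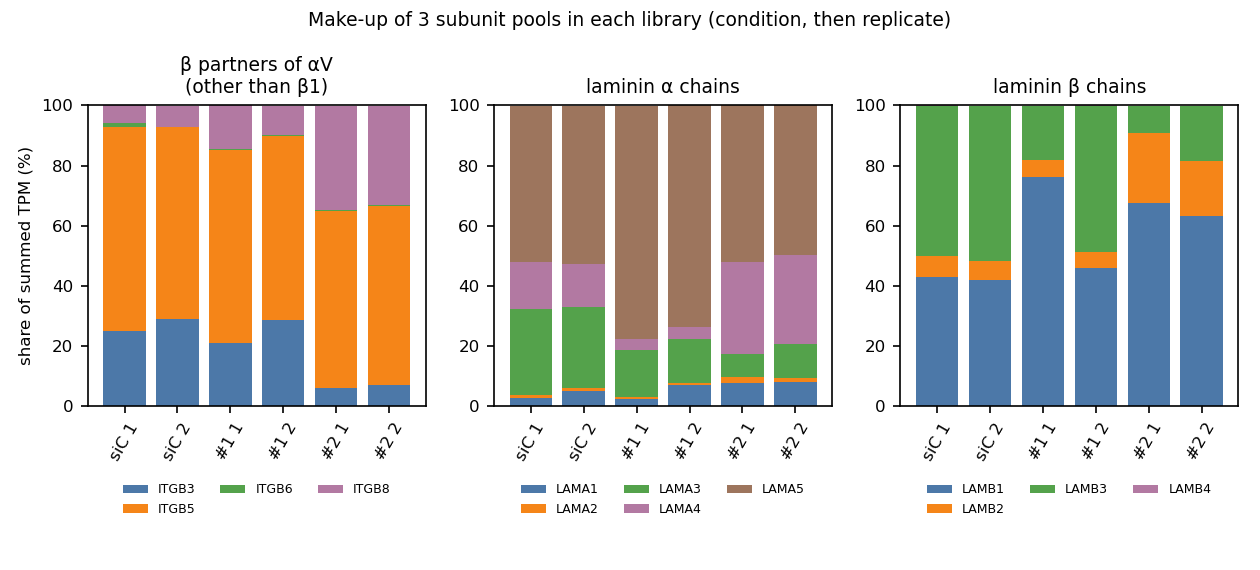
Share of summed TPM (percent, stacked bars) of the alphaV partners other than beta1, the laminin alpha chains and the laminin beta chains in each of the 6 libraries. ITGB8 takes 34.0% on average in siADAR1 #2 against 6.48% in siControl, and the siADAR1 #1 bars of the beta chains differ between replicates.

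Other genes of the same pathway were read from lists written from general knowledge, but with earlier results of these data known. Their shares beside those of all genes tested are therefore a description only. Of the 18 tested genes for other matrix ligands, 2 rose and 3 fell with siADAR1 #1, and 4 rose and 3 fell with siADAR1 #2, or 27.8% and 38.9% called, against 17.4% and 27.5% of all genes tested. The median log2 difference of these ligands was -0.36 with siADAR1 #1 and 0.06 with siADAR1 #2, and that of all genes tested -0.03 and -0.02. MFGE8, a secreted RGD ligand of alphaV integrins, read 1552 and 1797 (siControl), 856 and 999.9 (siADAR1 #1) and 6307 and 6471 (siADAR1 #2) normalized counts. It was lowest in siADAR1 #1 and highest in siADAR1 #2, with log2 differences of -0.85 (SE 0.14, adjusted p = 0.00805) and 1.93 (SE 0.14, adjusted p = 0.000346). CCN2, a matricellular integrin ligand, read 12538 and 8186 (siControl), 77708 and 45352 (siADAR1 #1) and 34819 and 22102 (siADAR1 #2) normalized counts. It rose with siADAR1 #1 by 2.55 (SE 0.32, adjusted p = 0.0041) and with siADAR1 #2 by 1.45 (SE 0.32, adjusted p = 0.012).

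SPP1, the RGD ligand osteopontin, read 37.0 and 64.3 (siControl), 5.61 and 5.02 (siADAR1 #1) and 76.0 and 111 (siADAR1 #2) normalized counts and fell with siADAR1 #1 by a log2 difference of -2.75 (SE 0.39, adjusted p = 0.00557), with 0.88 (adjusted p = 0.13) for siADAR1 #2. LTBP1, which tethers latent TGF-beta to the matrix, read 160.1 and 158 (siControl), 79.5 and 60.3 (siADAR1 #1) and 30.6 and 16.1 (siADAR1 #2) normalized counts and fell with siADAR1 #2 by -2.70 (SE 0.35, adjusted p = 0.00146), with -1.17 (adjusted p = 0.0526) for siADAR1 #1. AGRN, the heparan sulfate proteoglycan agrin that binds laminin, read 7535 and 6809 (siControl), 5602 and 5776 (siADAR1 #1) and 10331 and 10205 (siADAR1 #2) normalized counts and rose with siADAR1 #2 by 0.52 (SE 0.11, adjusted p = 0.00877), with -0.33 (adjusted p = 0.065) for siADAR1 #1. The call of MFGE8 with siADAR1 #1 was lost without siControl replicate 1 (-0.96) or siControl replicate 2 (-0.74). With siADAR1 #2, that of CCN2 was lost without siControl replicate 2 (1.15) or siADAR1 #2 replicate 1 (1.13). That of AGRN with siADAR1 #2 was lost without siControl replicate 2 (0.45) or siADAR1 #2 replicate 1 (0.51). Each fit without a library leaves 1 library in a group, and the differences kept their direction. With eBayes without trend, the siADAR1 #2 calls of CCN2 (adjusted p = 0.0562) and AGRN (adjusted p = 0.0515) were lost too.

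Of the 20 tested genes of the adhesion plaque, the cytoplasmic complex that couples integrins to actin, 0 rose (2 were higher at an unadjusted p below 0.05, 0 by voom) and 9 fell with siADAR1 #1, and 2 rose and 10 fell with siADAR1 #2. These were 45% and 60% called, against 17.4% and 27.5% of all genes tested, and the median log2 difference was -0.47 and -0.58, with -0.03 and -0.02 over all genes. ZYX, the plaque protein zyxin, read 11912 and 10945 (siControl), 4009.9 and 4963 (siADAR1 #1) and 5275 and 5503 (siADAR1 #2) normalized counts. Every siADAR1 library was below siControl, with log2 differences of -1.36 (SE 0.13, adjusted p = 0.0029) and -1.08 (SE 0.13, adjusted p = 0.0012). TLN1, the integrin activator talin, read 40698 and 35736 (siControl), 25622 and 24105 (siADAR1 #1) and 22470.2 and 22166 (siADAR1 #2) normalized counts. It was below siControl in every siADAR1 library, with log2 differences of -0.62 (SE 0.11, adjusted p = 0.00959) and -0.77 (SE 0.11, adjusted p = 0.00186).

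PTK2, the focal adhesion kinase, read 11954 and 10815 (siControl), 8835 and 9355 (siADAR1 #1) and 4038 and 4151 (siADAR1 #2) normalized counts and fell with siADAR1 #2 by a log2 difference of -1.47 (SE 0.11, adjusted p = 0.000355), with -0.32 (adjusted p = 0.0747) for siADAR1 #1. FERMT1, the epithelial kindlin that activates beta1 integrins, read 4103 and 4193 (siControl), 1967 and 2719.6 (siADAR1 #1) and 467 and 895 (siADAR1 #2) normalized counts and fell with siADAR1 #2 by -2.68 (SE 0.29, adjusted p = 0.000865), with -0.84 (adjusted p = 0.0854) for siADAR1 #1. TLN2, a paralog of talin, read 651 and 604 (siControl), 319.8 and 291 (siADAR1 #1) and 637 and 817 (siADAR1 #2) normalized counts and fell with siADAR1 #1 by -1.03 (SE 0.18, adjusted p = 0.00981), with 0.20 (adjusted p = 0.44) for siADAR1 #2. With siADAR1 #1, TLN1 lost its call without siControl replicate 1 (-0.52), with median-centred libraries (-0.48) and with eBayes without trend (adjusted p = 0.0642). TLN2 lost its call with siADAR1 #1 without siControl replicate 1 (-0.98) or 2 (-1.09).

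Of the 15 tested genes for other laminin receptors and integrin partners, 1 rose and 3 fell with siADAR1 #1, and 3 rose and 4 fell with siADAR1 #2, or 26.7% and 46.7% called, against 17.4% and 27.5% of all genes tested, with medians of -0.26 and -0.05 (all genes, -0.03 and -0.02). BCAM, the Lutheran glycoprotein that binds the alpha5 chain of laminin, read 237 and 226 (siControl), 242 and 224 (siADAR1 #1) and 2084 and 1643 (siADAR1 #2) normalized counts. Both siADAR1 #2 libraries were far above the other 4, and BCAM rose with siADAR1 #2 by 2.98 (SE 0.18, adjusted p = 0.000336). MCAM, a receptor for the alpha4 chain of laminin, read 1987 and 1572 (siControl), 8542 and 5582 (siADAR1 #1) and 843 and 1160.1 (siADAR1 #2) normalized counts. It was highest in siADAR1 #1, with log2 differences of 1.96 (SE 0.24, adjusted p = 0.004) with siADAR1 #1 and -0.84 (SE 0.24, adjusted p = 0.0346) with siADAR1 #2. PLEC, the plectin that ties ITGB4 to keratin filaments, read 33954 and 26839.6 (siControl), 11629.5 and 13207 (siADAR1 #1) and 16852 and 19421 (siADAR1 #2) normalized counts. It was below siControl in all siADAR1 libraries, with log2 differences of -1.28 (SE 0.15, adjusted p = 0.00355) and -0.74 (SE 0.15, adjusted p = 0.00775).

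DST, the other hemidesmosome linker, read 21653 and 17453 (siControl), 17339.6 and 15249.6 (siADAR1 #1) and 43575 and 32697 (siADAR1 #2) normalized counts and rose with siADAR1 #2 by a log2 difference of 0.96 (SE 0.17, adjusted p = 0.00493), with -0.26 (adjusted p = 0.332) for siADAR1 #1. SDC1, the syndecan of epithelia, read 1801 and 1944 (siControl), 1823 and 1983 (siADAR1 #1) and 925 and 1093 (siADAR1 #2) normalized counts and fell with siADAR1 #2 by -0.89 (SE 0.14, adjusted p = 0.00302), with 0.023 (adjusted p = 0.931) for siADAR1 #1. CD81, a tetraspanin partner of integrins, read 8077 and 7168 (siControl), 3782 and 5082 (siADAR1 #1) and 7621 and 6999 (siADAR1 #2) normalized counts and fell with siADAR1 #1 by -0.80 (SE 0.16, adjusted p = 0.0146), with -0.059 (adjusted p = 0.813) for siADAR1 #2. The call of CD81 was lost without siControl replicate 1 (-0.71), siControl replicate 2 (-0.88) or siADAR1 #1 replicate 1 (-0.58). It was also lost with eBayes without trend (adjusted p = 0.0719). The fall of PLEC with siADAR1 #2 was not called without siControl replicate 1 (-0.57) or siADAR1 #2 replicate 1 (-0.64). That of MCAM was not called without siControl replicate 1 (-0.67), siControl replicate 2 (-1.01) or siADAR1 #2 replicate 1 (-0.61). The MCAM call was also lost with no filter (adjusted p = 0.0627), with eBayes without trend (adjusted p = 0.101) and with voom (adjusted p = 0.0503). Over the 3 lists together, 18 genes were called with siADAR1 #1 and 26 with siADAR1 #2, and these counts were 5 and 17 without siControl replicate 1, 10 and 28 without siADAR1 #1 replicate 1, 10 and 19 without siControl replicate 2, and 21 and 17 without siADAR1 #2 replicate 1.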

How the data were processed

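Total RNA was isolated with the mirVana kit, and poly(A)+ libraries were made with a KAPA mRNA HyperPrep kit. Within bcbio-nextgen the authors checked reads with FastQC, trimmed adapters with Atropos, counted with featureCounts (with Salmon in parallel) and normalized with DESeq2; the submitters' notes give GRCh38, and versions and strand settings are not given in the sources used here. The deposited values were variance-stabilized log2 values of size-factor-normalized counts that the authors made for 58333 genes. The sample labels name 1 sample per condition, and the 2 columns of each were taken as the 2 biological replicates of the study's methods. The lowest value, 0.347735697, stood for 0 reads, and undoing the transformation gave whole reads for 100% of values in every library (tolerance 0.1). Symbols, positions and canonical transcript lengths came from GENCODE release 44 (57830 identifiers matched, 503 did not), and 0 columns were unused.

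Log2 values of all 6 libraries were fitted with 3 groups in limma 3.58.1 (R 4.3.3; lmFit, eBayes with trend, two-sided, Benjamini-Hochberg adjustment). The filter of a mean of 10 normalized counts left 20247 genes, and the thresholds of 0.05 and 0.5 were those of the study. Members and lists were chosen with earlier results of these data known. Named were ADAR, the members (1 of them is counted but not reported here), and up to 3 called genes of each further list with the smallest adjusted p per siRNA. Alternatives were no filter, a filter of 50, median centring, log2 of the count plus a pseudocount of 1, eBayes without trend, voom on recovered reads, fits of 4 libraries, a replicate block and each library left out. Same-numbered libraries deviated together in the 3 pairs of conditions (correlations of 0.11, 0.13 and 0.15 over 20247 genes), a pairing read from the values and stated in no label. TPM with the length of all annotated exons was added after the data were seen. Steps were tested on simulated data. The precision is limited by depth (30114840 to 50029763 reads) and by 2 libraries per condition.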

Additional observations from a re-analysis of the deposited data

Results flagged for a closer look

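The effects of the siRNAs differed from each other for 13 members by the direct test of siADAR1 #2 against siADAR1 #1 with limma, a contrast that does not involve the shared siControl libraries. Values are log2 differences, positive where siADAR1 #2 was higher.

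Among the laminin chains, LAMA4 differed by 3.59, LAMA2 by 1.69, LAMB2 by 1.59 and LAMA1 by 1.51, and LAMC3 by -0.62. Of these, LAMA4 differed from siControl in opposite directions, at -2.31 (SE 0.19, adjusted p = 0.00247) with siADAR1 #1 and 1.28 (SE 0.19, adjusted p = 0.00228) with siADAR1 #2.

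Among the integrins, ITGB4 differed by 2.86, ITGB8 by 1.92, ITGA1 by 1.09, ITGA5 by 1.07, ITGA11 by 1.05 and ITGA6 by 0.57, and in the other direction ITGB3 differed by -1.50 and ITGA2 by -0.91. Of all genes tested, 33.7% differed by the same test, so a difference between the siRNAs was common in these libraries. The knockdown of ADAR was not called different between the siRNAs, at 0.35 (SE 0.30, adjusted p = 0.406).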

How the results depend on the processing

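With each library left out in turn, 2 to 7 members were called with siADAR1 #1 (6 with all libraries), 8 to 13 with siADAR1 #2 (12) and 10 to 13 between the siRNAs (13). The genes of the 3 further lists gave 5 to 21 calls with siADAR1 #1 (18) and 17 to 28 with siADAR1 #2 (26), and all genes gave 312 to 3596 (3518), the fewest without siControl replicate 1, and 3105 to 5743 (5573), the fewest without siADAR1 #2 replicate 1. With siADAR1 #1, no filter gave 3 members, and eBayes without trend gave 2 members, 7 genes of the further lists and 1478 of all genes, against 17 genes of the further lists with siADAR1 #2. With a replicate block, 6, 13 and 15 members were called in the 3 comparisons, and 4094, 6065 and 7256 of all genes. Of the members described, the block added the calls of LAMA1 with siADAR1 #2 and of LAMB3 between the siRNAs, and it changed no other of their calls.

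Centring each library on its median moved the median of all genes by 0.14 with siADAR1 #1, 0.04 with siADAR1 #2 and -0.10 between the siRNAs. With siADAR1 #1, it gave 1 member up and 4 down (0 and 6 without it), and 1938 of all genes up and 1723 down (1293 and 2225). Between the siRNAs, it gave 9 members up and 5 down (10 and 3). Signs turned for ITGA3 (0.067), ITGA5 (0.045), ITGAD (0.11), ITGAV (0.082) and LAMC3 (0.11) with siADAR1 #1, and for ITGA7 (-0.079), ITGAV (-0.084), ITGB1 (-0.056) and LAMA5 (-0.087) between the siRNAs. None of these 9 differences was called.

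With 1 library left out, these differences changed sign in at least 1 case, given as lowest to highest log2 difference. With siADAR1 #1 they were ITGA5 -0.23 to 0.035, ITGA7 -0.45 to 0.13, ITGAD -0.26 to 0.20, ITGAV -0.25 to 0.13, ITGB2 -0.82 to 0.39, ITGB4 -0.077 to 0.20, ITGB6 -2.80 to 0.62, LAMA1 -1.04 to 0.69, LAMB3 -1.76 to 0.17, LAMC1 -0.58 to 0.0049 and LAMC3 -0.17 to 0.12. With siADAR1 #2 they were ITGA10 -0.015 to 0.67, ITGA11 -0.61 to 0.21, ITGA2B -0.21 to 0.51, ITGA7 -0.42 to 0.16, ITGAL -2.73 to 0.22, ITGAV -0.23 to 0.15, ITGAX -0.11 to 0.37, ITGB2 -0.064 to 1.15, ITGB5 -0.44 to 0.0061 and ITGB6 -2.38 to 1.04. Between the siRNAs they were ITGA7 -0.12 to 0.17, ITGAE -0.36 to 0.018, ITGAL -1.12 to 1.83, ITGAV -0.049 to 0.092, ITGB1 -0.057 to 0.16, ITGB6 -0.070 to 0.91, LAMA3 -0.39 to 0.18 and LAMA5 -0.062 to 0.099.

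Of 920 values of single genes under the other alternatives, 874 kept their direction and their side of the threshold, 30 lost a call, 7 gained one and 9 changed sign. With 1 library left out these numbers were 598, 54, 10 and 40 of 702. With the length of all exons, 34 shares of summed TPM moved by more than 1 SD and 17 did not. The cause of these changes was not tested. At this depth the 6 members below the filter had at most 14 reads in a library, and no difference was tested for them.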
